A study of Arabidopsis thaliana with 8 samples.

Results

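The genes described here are 48 loci of Arabidopsis thaliana that sense DNA damage, pass the signal on or repair the damage, out of 33279 genes in the deposited table. They were picked by locus identifier, by their known roles and with earlier results of these data known, and all 48 were found in the table. They comprise 4 signalling genes, 14 repair and checkpoint genes known as targets of the transcription factor SOG1, and 30 other repair genes regarded as constitutive. These other genes cover homologous recombination and crosslink repair (12), end joining (5), base excision and single-strand break repair (6), nucleotide excision and photorepair (3) and mismatch repair (4). The border between the lists was a choice. An alternative counted the signalling gene WEE1 and the end joining genes LIG4, KU70 and KU80 as SOG1-regulated. Transcripts were measured by RNA sequencing in whole imbibed seeds of serk1-1, a mutant line in the Columbia-0 background named after the receptor kinase gene SERK1, and of Columbia-0 wild type (Col-0). Each genotype was imbibed for 24 h in liquid medium with 200 mM NaCl or without added NaCl. This gave 4 groups of 2 libraries, namely salted serk1-1, unsalted serk1-1, salted Col-0 and unsalted Col-0. The titles of the serk1-1 samples also carry the words wild type, and the genotype label was followed. The labels give 1 allele and do not say what kind of mutation it is.

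In plants, the kinases ATM and ATR respond to broken DNA and to stalled replication forks. They act on SOG1, a plant-specific NAC transcription factor that takes the role p53 has in animals and switches on repair genes, cell cycle inhibitors and further NAC factors. Dry seeds gather DNA damage in storage, and early imbibition is known as a time of repair before cells divide again. Other repair enzymes, such as those of mismatch and excision repair, are present in most cells without an induced signal.

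SOG1 binds a palindromic motif, CTT and AAG spaced by 7 bases of any kind. The 100 bases upstream of the annotated gene start are shown for 4 of the 5 SOG1-regulated genes with this motif (in capitals) within 250 bases before to 50 bases after the start, and for XRI1, the SOG1-regulated gene with the highest level, which had none there. Sequences are from the RefSeq TAIR10.1 assembly, on the strand of the gene, and end at the base before the gene start.
NAC044, chr3:228975-229074, plus strand: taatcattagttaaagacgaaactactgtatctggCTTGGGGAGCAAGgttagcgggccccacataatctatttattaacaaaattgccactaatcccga
RAD54, chr3:6658989-6659088, minus strand: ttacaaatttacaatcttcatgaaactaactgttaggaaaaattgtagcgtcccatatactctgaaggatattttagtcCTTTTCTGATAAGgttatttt
AT4G32700, chr4:15767085-15767184, plus strand: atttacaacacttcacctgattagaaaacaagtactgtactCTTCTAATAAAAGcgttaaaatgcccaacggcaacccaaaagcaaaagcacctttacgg
COM1, chr3:19325935-19326034, plus strand: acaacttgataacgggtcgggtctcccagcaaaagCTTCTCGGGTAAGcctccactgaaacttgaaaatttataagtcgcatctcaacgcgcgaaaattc
XRI1, chr5:19758781-19758880, plus strand: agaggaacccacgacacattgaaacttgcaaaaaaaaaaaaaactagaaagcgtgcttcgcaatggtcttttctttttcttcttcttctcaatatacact

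The SOG1 motif was present in 5 of the 14 SOG1-regulated promoters (35.7%), in 5 of the 30 other repair promoters (16.7%) and in 0 of the 4 signalling promoters. Of 27443 promoters of protein-coding genes, 3230 held it (11.8%). In the SOG1-regulated genes the motif began at -65 in NAC044 and COM1, at -59 in AT4G32700 and at -21 in RAD54, counted from the gene start. In the other repair genes it began at -228 in ARP and after the gene start in the remaining 4, AT1G48360, LIG4, XRCC1 and UVH1. The E2F site, the motif of the factors that drive genes of DNA synthesis, was searched as TTTCCCGC, TTTCGCGC, TTTGCCGC and TTTGGCGC on both strands. It was found in NAC085, BRCA1 and COM1 (3 of 14, 21.4%), in 0 of the 30 other repair promoters and in 1.76% of all promoters. The E2F match of COM1 began at -12 and did not overlap its SOG1 motif. These matches describe the letters in the window and are not sites of measured binding.

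**Figure D1:**
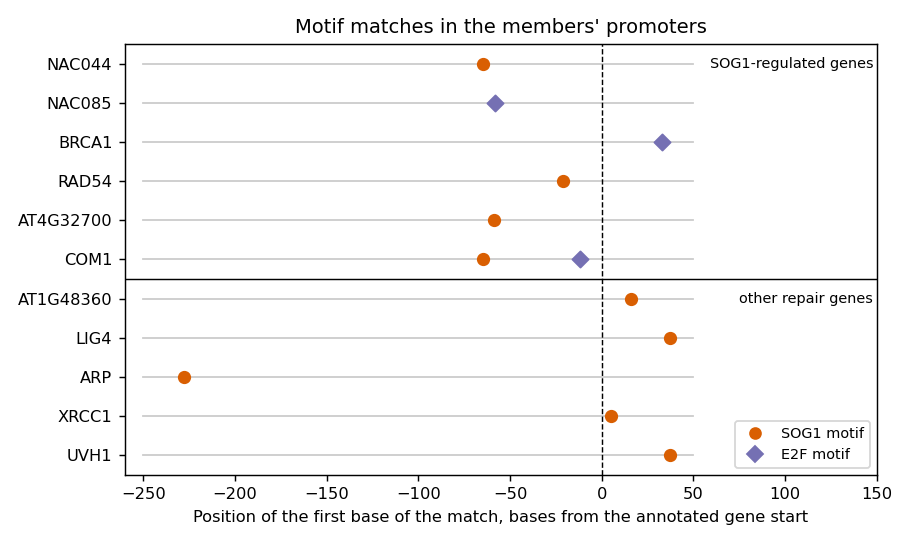
Motif matches in promoters of members that held one. The horizontal axis gives the position of the first base of each match in bases from the annotated gene start, the grey lines mark the window searched, circles are SOG1 motifs and diamonds E2F motifs. The SOG1 motifs drawn for the SOG1-regulated genes lie between -65 and -21.

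Levels are FPKM, fragments scaled by transcript length and by the number mapped in the library, as the authors deposited them, so levels of different genes can be set side by side. Differences between genotypes or media are on the log2(FPKM + 1) scale, each given with its standard error (n = 2 libraries a group), and this scale understates the change of weak genes. They were tested with limma over 15336 genes that reached 1 FPKM in at least 2 libraries, two-sided, with Benjamini-Hochberg adjustment, and a gene is called at an adjusted p under 0.05. Of the 48 genes, 43 were tested, and WEE1, NAC085, BARD1, RAD51B and PHR1 were too weak. The FPKM of a library summed to between 885375 and 901215 in serk1-1 and between 777936 and 821247 in Col-0, and 18571 to 20648 genes were above 0. The sequencing depth is unknown. SERK1 stood at 1.05 to 1.53 FPKM in serk1-1 and at 1.06 to 2.70 FPKM in Col-0, which does not check the genotype because the kind of mutation is not given. The 5 embryo and seed reserve markers summed to 25952 to 55341 FPKM in serk1-1 and to 4459 to 14919 FPKM in Col-0, and 3 of them were called higher in serk1-1 without NaCl and 2 with NaCl. The storage, oil body and Em genes carry this sum, whereas ABI3, a transcription factor of seed maturation on the same list, had 114 to 157 FPKM in serk1-1 and 171 to 220 FPKM in Col-0 (-0.62 ± 0.21 without and -0.56 ± 0.21 with NaCl, adjusted p = 0.0958 and 0.137, not called). Of the 3 endosperm markers, which summed to 1386 to 2005 FPKM in serk1-1 and to 241 to 339 FPKM in Col-0, EPR1 was higher and CP1 lower in serk1-1 in both media. The 4 seed coat markers summed to 1.27 to 1.87 FPKM in serk1-1 and to 2.54 to 6.17 FPKM in Col-0, with TT10 and BAN at 0 in all 8 libraries, and 0 of them were called. The part of these seed markers in the results that follow was not tested.

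Without NaCl, 10 of the 48 genes were lower in serk1-1 and 0 were higher, where 11.1% of all genes tested were called, 5.07% as lower. The 10 were 9 of the 14 SOG1-regulated genes and 1 of the 30 other repair genes. With NaCl, 8 of the 48 were lower and 0 higher, against 6.27% of all genes called, 4.14% as lower, and these were 7 of the 14 and 1 of the 30. Of these genes, COM1, RPA1E and BRCA1 stayed under 1 FPKM in all serk1-1 libraries and passed the filter on low values through Col-0 alone, as did ATR and AT4G32700, which were not called. The 8 genes called with NaCl were also called without it. The media had separate libraries, but both comparisons come from 1 fit that shares its variance. With only the salted groups in the fit, 0 of the 48 and 9 of all genes tested were called with NaCl, and under median-of-ratios scaling 4 of the 48 and 972 of all genes were. The counts also depend on single libraries, and the calls over all genes tested, 1697 without and 962 with NaCl, fell in the same fits. Without NaCl, leaving out replicate 2 of serk1-1 in that medium gave 0 of the 48 and 13 of all genes, and leaving out replicate 1 gave 6 and 845. Leaving out replicate 2 of Col-0 in that medium gave 1 of the 48 and 172 of all genes, and leaving out replicate 1 gave 3 and 129. With NaCl, 0 of the 48 were called when replicate 1 or replicate 2 of salted serk1-1 was left out, with 15 and 2 of all genes. Leaving out replicate 1 of salted Col-0 gave 1 of the 48 and 18 of all genes, and leaving out replicate 2 gave 4 and 672. It was 5 of the 48 when replicate 1 or replicate 2 of unsalted serk1-1 was left out, with 493 and 481 of all genes. The lone library of a group is then assumed to vary like the other groups. In whole seeds, fewer cells of a type and less RNA per cell cannot be told apart.

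Among the signalling genes, SOG1, the transcription factor itself, had 8.28 and 6.21 FPKM in serk1-1 without NaCl, against 13.8 and 12.7 FPKM in Col-0 without NaCl. With NaCl it had 7.28 and 7.5 FPKM in serk1-1, against 11.3 and 11.1 FPKM in Col-0. All 4 serk1-1 libraries lay below all 4 Col-0 libraries, which 20.4% of all genes tested also showed. The log2 difference was -0.80 ± 0.22 without NaCl (adjusted p = 0.0566) and -0.54 ± 0.22 with NaCl (adjusted p = 0.159), so SOG1 was not called in either medium.

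ATM, the kinase activated by double-strand breaks, had 5.73 and 8.46 FPKM in serk1-1 and 4.72 and 4.88 FPKM in Col-0 without NaCl. It had 5.19 and 6.64 FPKM in serk1-1 and 3.26 and 5.25 FPKM in Col-0 with NaCl. The genotypes overlapped with NaCl, and without NaCl both serk1-1 libraries lay above both Col-0 libraries. The differences of 0.46 ± 0.30 without and 0.41 ± 0.30 with NaCl were not called (adjusted p = 0.333 and 0.390). ATR, the kinase of stalled forks, was weak, at 0.33 to 0.52 FPKM in the 4 serk1-1 libraries and at 0.50 to 2.04 FPKM in the 4 Col-0 libraries. Its differences, -0.41 ± 0.38 without and -0.72 ± 0.38 with NaCl, were not called (adjusted p = 0.503 and 0.255). ATR overlaps AT5G40810 on the other strand, a gene at 94.4 to 105.5 FPKM in serk1-1 and at 88.0 to 103 FPKM in Col-0. If the reads carry no strand, those in the stretch the genes share cannot be told apart. WEE1, the kinase that blocks cyclin-dependent kinases after damage, had 0.02 and 0.03 FPKM in salted serk1-1 and was listed at 0 in both libraries of unsalted serk1-1. In Col-0, WEE1 had 0.28 and 0.39 FPKM with NaCl and 0.48 and 0.30 FPKM without it, and it was too weak to test.

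**Figure D2:**
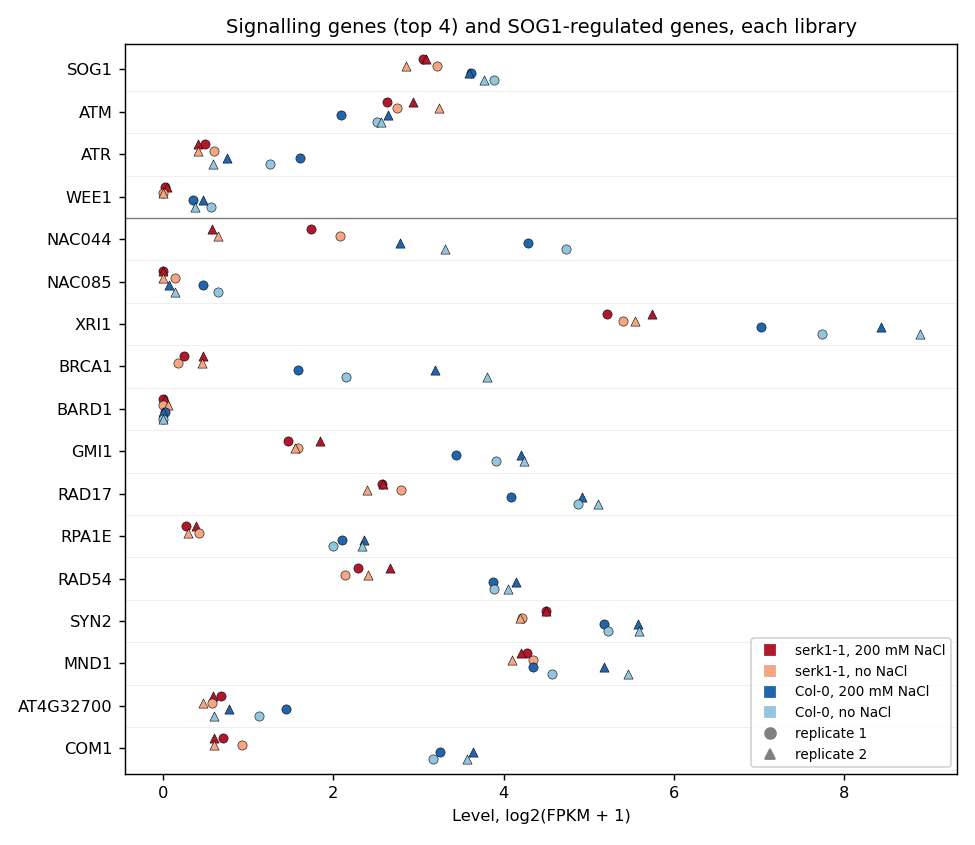
Level of the 4 signalling genes and of SOG1-regulated genes in each library, as log2(FPKM + 1). Colours give the group and shapes the replicate. For SOG1, WEE1, NAC044, XRI1, BRCA1, GMI1, RAD17, RPA1E, RAD54, SYN2 and COM1 the 4 serk1-1 points lie to the left of the 4 Col-0 points. BARD1 is near 0 in all libraries.

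Of the recombination genes of the SOG1-regulated list, those that fell in serk1-1 in both media included RAD54, COM1 and RPA1E, and BRCA1 fell in the medium without NaCl. RAD54, a DNA translocase that acts in strand exchange, had 3.41 and 4.29 FPKM in serk1-1 and 13.8 and 15.6 FPKM in Col-0 without NaCl. In the salted seeds RAD54 had 3.91 and 5.36 FPKM in serk1-1 and 13.7 and 16.6 FPKM in Col-0. Its groups did not overlap, and it fell by 1.70 ± 0.25 without NaCl (adjusted p = 0.0118) and by 1.53 ± 0.25 with NaCl (adjusted p = 0.0239).

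COM1, which starts the trimming of broken ends, stood at 0.91 and 0.52 FPKM in serk1-1 and at 7.97 and 10.9 FPKM in Col-0 without NaCl, and at 0.63 and 0.52 FPKM in serk1-1 and 8.55 and 11.5 FPKM in Col-0 with NaCl. Every serk1-1 library was under 1 FPKM and every Col-0 library was above 7 FPKM. COM1 fell in both media, at -2.60 ± 0.28 without NaCl (adjusted p = 0.00568) and -2.79 ± 0.28 with NaCl (adjusted p = 0.0127), and at such levels in serk1-1 no ratio of means is given. RPA1E, a large subunit of the protein that coats single-stranded DNA, had 0.34 and 0.23 FPKM in serk1-1 and 2.99 and 4.05 FPKM in Col-0 without NaCl. RPA1E had 0.21 and 0.31 FPKM in serk1-1 and 3.31 and 4.15 FPKM in Col-0 with NaCl. It was again low in each serk1-1 library, and its log2 difference was -1.81 ± 0.27 without NaCl (adjusted p = 0.0126) and -1.90 ± 0.27 with NaCl (adjusted p = 0.0185).

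BRCA1, a ubiquitin ligase of homologous recombination, had 0.13 and 0.37 FPKM in serk1-1 and 3.44 and 12.97 FPKM in Col-0 without NaCl. It had 0.19 and 0.39 FPKM in serk1-1 and 2.00 and 8.16 FPKM in Col-0 with NaCl. The genotypes did not overlap, and the Col-0 replicates lay far apart. BRCA1 fell by 2.66 ± 0.65 without NaCl (adjusted p = 0.0417), and with NaCl it stood at -2.03 ± 0.65 and was not called (adjusted p = 0.0973). BARD1, the partner of BRCA1, was listed at 0 or reached at most 0.04 FPKM in every library and was not tested. MND1, which aids strand exchange in meiosis, had 19.4 and 16.2 FPKM in serk1-1 and 22.7 and 43.04 FPKM in Col-0 without NaCl. In salt it had 18.4 and 17.4 FPKM in serk1-1 and 19.3 and 35.3 FPKM in Col-0. Within each medium the serk1-1 libraries lay below the Col-0 libraries. Across media, 19.37 FPKM in unsalted serk1-1 stood just above 19.29 FPKM in salted Col-0. Its differences of -0.79 ± 0.36 and -0.52 ± 0.36 were not called (adjusted p = 0.191 and 0.376). AT4G32700, annotated as similar to the DNA polymerase MUS308, had 0.39 to 0.60 FPKM in the serk1-1 libraries and 0.51 to 1.73 FPKM in the Col-0 libraries. Its differences of -0.34 ± 0.34 and -0.48 ± 0.34 were not called either (adjusted p = 0.537 and 0.380).

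Of the checkpoint and chromatin genes of the list, XRI1, an X-ray induced gene needed for meiosis, was the SOG1-regulated gene with the highest level in every library. XRI1 had 41.25 and 45.6 FPKM in serk1-1 and 213 and 471 FPKM in Col-0 without NaCl. It had 36.2 and 52.5 FPKM in serk1-1 and 129 and 345 FPKM in Col-0 with NaCl. The serk1-1 values were close to each other and the Col-0 values were several times higher. XRI1 fell by 2.84 ± 0.51 without NaCl (7.88-fold, adjusted p = 0.0204) and by 2.25 ± 0.51 with NaCl (5.34-fold, adjusted p = 0.0471). GMI1, a gamma-ray induced relative of the SMC proteins that acts in somatic recombination, had 1.99 and 1.94 FPKM in serk1-1 and 13.99 and 17.9 FPKM in Col-0 without NaCl. With salt GMI1 had 1.76 and 2.58 FPKM in serk1-1 and 9.84 and 17.4 FPKM in Col-0. Its groups were apart, and it fell by 2.51 ± 0.32 without NaCl (adjusted p = 0.00900) and by 2.17 ± 0.32 with NaCl (adjusted p = 0.0193). GMI1 overlaps AT5G03735 on the other strand, a gene that the deposited table does not hold.

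RAD17, which loads the checkpoint clamp onto DNA, had 5.96 and 4.27 FPKM in serk1-1 and 28.2 and 33.5 FPKM in Col-0 without NaCl. It had 4.97 and 4.99 FPKM in serk1-1 and 15.95 and 29.3 FPKM in Col-0 with NaCl. RAD17 was low in all serk1-1 libraries and fell by 2.39 ± 0.31 without NaCl (adjusted p = 0.00934) and by 1.92 ± 0.31 with NaCl (adjusted p = 0.0239). It overlaps AT5G66140 on the other strand, a gene at 55.6 to 114 FPKM in serk1-1 and at 149 to 361 FPKM in Col-0. The share of reads of AT5G66140 in the value of RAD17 is unknown. SYN2, a cohesin subunit of the RAD21 family that holds sister chromatids together, had 17.6 and 17.3 FPKM in serk1-1 and 36.5 and 47.1 FPKM in Col-0 without NaCl. SYN2 had 21.55 and 21.6 FPKM in serk1-1 and 35.2 and 46.8 FPKM in Col-0 with NaCl. It was thus still well expressed in serk1-1, at less than the lowest Col-0 library. It fell by 1.20 ± 0.21 without NaCl (adjusted p = 0.0191), and with NaCl it stood at -0.88 ± 0.21 (adjusted p = 0.0541, not called).

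NAC044 and NAC085 are the NAC factors most like SOG1 and delay cell division after damage. NAC044 had 3.21 and 0.56 FPKM in serk1-1 and 25.6 and 8.89 FPKM in Col-0 without NaCl. It had 2.35 and 0.49 FPKM in serk1-1 and 18.4 and 5.90 FPKM in Col-0 with NaCl. The genotypes did not overlap, but replicate 1 stood above replicate 2 in each group. The log2 difference was -2.66 ± 0.75 without NaCl (adjusted p = 0.0601) and -2.37 ± 0.75 with NaCl (adjusted p = 0.0938), and neither difference was called. Replicate 2 of serk1-1 was under 1 FPKM in each medium, so no ratio of means is given. NAC085 had 0.10 FPKM in 1 serk1-1 library and was listed at 0 in the other 3, against 0.05 to 0.56 FPKM in Col-0, and was not tested.

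Of the 30 other repair genes, AT3G14890, annotated as a phosphoesterase, was the member called in each medium, and the remaining 29 were not called. It had 3.04 and 3.79 FPKM in serk1-1 and 8.75 and 7.62 FPKM in Col-0 without NaCl. It had 2.74 and 3.16 FPKM in serk1-1 and 8.28 and 7.48 FPKM in Col-0 with NaCl. The groups did not overlap and the replicates were close. AT3G14890 fell by 1.06 ± 0.23 without NaCl (2.40-fold, adjusted p = 0.0327) and by 1.17 ± 0.23 with NaCl (2.67-fold, adjusted p = 0.0361). LIG1, the ligase that seals nicks in replication and excision repair, had the largest negative value of this list without NaCl. It had 9.63 and 6.59 FPKM in serk1-1 and 23.3 and 15.4 FPKM in Col-0 without NaCl, and 10.5 and 6.29 FPKM in serk1-1 and 24.4 and 14.1 FPKM in Col-0 with NaCl. Its groups did not overlap, but its replicates varied more, and -1.15 ± 0.37 and -1.09 ± 0.37 were not called (adjusted p = 0.0844 and 0.109). XRCC1, the scaffold of single-strand break repair, stood at 7.41 and 8.88 FPKM in serk1-1 and 5.88 and 5.25 FPKM in Col-0 without NaCl, and at 6.03 and 6.85 FPKM in serk1-1 and 7.80 and 6.52 FPKM in Col-0 with NaCl. Its value was 0.48 ± 0.23 without NaCl and -0.13 ± 0.23 with NaCl, neither called (adjusted p = 0.205 and 0.729). The glycosylase genes OGG1 and FPG1 and the endonuclease gene ARP, which remove oxidised bases and cut the strand, had 3.85 to 55.4 FPKM in serk1-1 and 5.40 to 50.9 FPKM in Col-0, and were not called.

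In homologous recombination and crosslink repair, limma called 0 of 12 genes, and 2 had an unadjusted p under 0.05 in each medium. XRCC3, a mediator of strand exchange, had the most negative value without NaCl. It had 1.96 and 1.04 FPKM in serk1-1 and 4.32 and 4.14 FPKM in Col-0 without NaCl, and 1.89 and 0.72 FPKM in serk1-1 and 2.01 and 1.63 FPKM in Col-0 with NaCl. The groups were apart without NaCl and overlapped with NaCl, and its values of -1.09 ± 0.34 and -0.34 ± 0.34 were not called (adjusted p = 0.0778 and 0.541). RAD51D, another mediator, was the member with all 4 serk1-1 libraries above all 4 Col-0 libraries, as 12.3% of all genes tested were. It had 8.38 and 8.74 FPKM in serk1-1 and 3.62 and 4.88 FPKM in Col-0 without NaCl, and 6.96 and 9.23 FPKM in serk1-1 and 3.95 and 4.15 FPKM in Col-0 with NaCl. Its values of 0.87 ± 0.25 and 0.84 ± 0.25 were not called (adjusted p = 0.0612 and 0.0810). The mediators thus had values of both signs. MRE11, RAD50 and NBS1, which together form the complex that binds broken ends, stood between -0.88 and 0.18 in the 2 media. The nuclease gene MUS81, the helicase gene RECQ4A, RAD5A, AT1G48360, RAD51C and XRCC2 stood between -0.78 and 0.60, and none of these 9 genes was called. RECQ4A, which had the value of -0.78, overlaps AT1G10940 on the same strand. That gene had 21.5 to 23.3 FPKM in serk1-1 and 22.5 to 33.8 FPKM in Col-0. The share of its reads in the value of RECQ4A was not tested. The 12 genes of the list summed to 48.3 to 57.2 FPKM in serk1-1 and to 50.8 to 69.9 FPKM in Col-0. RAD51B reached 0.17 FPKM at most in serk1-1 and 0.07 FPKM in Col-0 and was not tested.

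Of the 5 end joining genes limma called 0 in both media, and 1 had an unadjusted p under 0.05 without NaCl and 0 with NaCl. LIG4, the ligase of classical end joining, had 3.62 and 3.07 FPKM in serk1-1 and 6.16 and 4.88 FPKM in Col-0 without NaCl, and 3.59 and 3.26 FPKM in serk1-1 and 5.99 and 4.37 FPKM in Col-0 with NaCl. Every serk1-1 library was below every Col-0 library, at -0.58 ± 0.26 and -0.47 ± 0.26 (adjusted p = 0.175 and 0.272). LIG4 overlaps AT5G57150 on the other strand, a gene at 1.66 to 3.62 FPKM in serk1-1 and at 3.0 to 8.69 FPKM in Col-0. If the reads carry no strand, those in the stretch the 2 genes share cannot be told apart. LIG6, a plant ligase required for seed longevity, had 10.5 and 11.5 FPKM in serk1-1 and 7.35 and 4.22 FPKM in Col-0 without NaCl, and 7.14 and 9.16 FPKM in serk1-1 and 4.94 and 5.73 FPKM in Col-0 with NaCl. The serk1-1 values of LIG6 were above the Col-0 values within each medium, at 0.86 ± 0.29 and 0.52 ± 0.29 (adjusted p = 0.0925 and 0.271). The end-binding pair KU70 and KU80 and the LIG4 partner XRCC4 had log2 differences from -0.59 to -0.08 in the 2 media, and none of them was called.

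In nucleotide excision and photorepair 0 of 3 genes were called by limma, with 0 at an unadjusted p under 0.05 without NaCl and 1 with NaCl. UVH1, the nuclease subunit that cuts beside a lesion, had 3.60 and 2.45 FPKM in serk1-1 and 6.31 and 4.86 FPKM in Col-0 without NaCl. It had 3.49 and 2.19 FPKM in serk1-1 and 6.78 and 4.42 FPKM in Col-0 with NaCl, again with no overlap between genotypes. Its values of -0.72 ± 0.32 and -0.78 ± 0.32 were not called (adjusted p = 0.177 and 0.163). RAD4, the plant counterpart of a yeast lesion sensor, stood at -0.05 ± 0.22 and -0.44 ± 0.22 (adjusted p = 0.891 and 0.237). PHR1, the photolyase that reverses ultraviolet damage, had 0.14 to 0.32 FPKM in serk1-1 and 0.50 to 0.56 FPKM in Col-0 and was not tested. Of the 4 mismatch repair genes limma called 0, with 0 at an unadjusted p under 0.05 in either medium. MSH6, a subunit that recognises mismatches, had 3.96 and 5.30 FPKM in serk1-1 and 4.77 and 3.71 FPKM in Col-0 without NaCl, and 4.54 and 5.09 FPKM in serk1-1 and 5.07 and 4.97 FPKM in Col-0 with NaCl. MSH6 had the highest value of its list without NaCl, 0.10 ± 0.25, which was within the spread between replicates (adjusted p = 0.812). PMS1, another mismatch repair subunit, stood at 0.01 ± 0.23 without and -0.15 ± 0.23 with NaCl (adjusted p = 0.980 and 0.692).

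**Figure D3:**
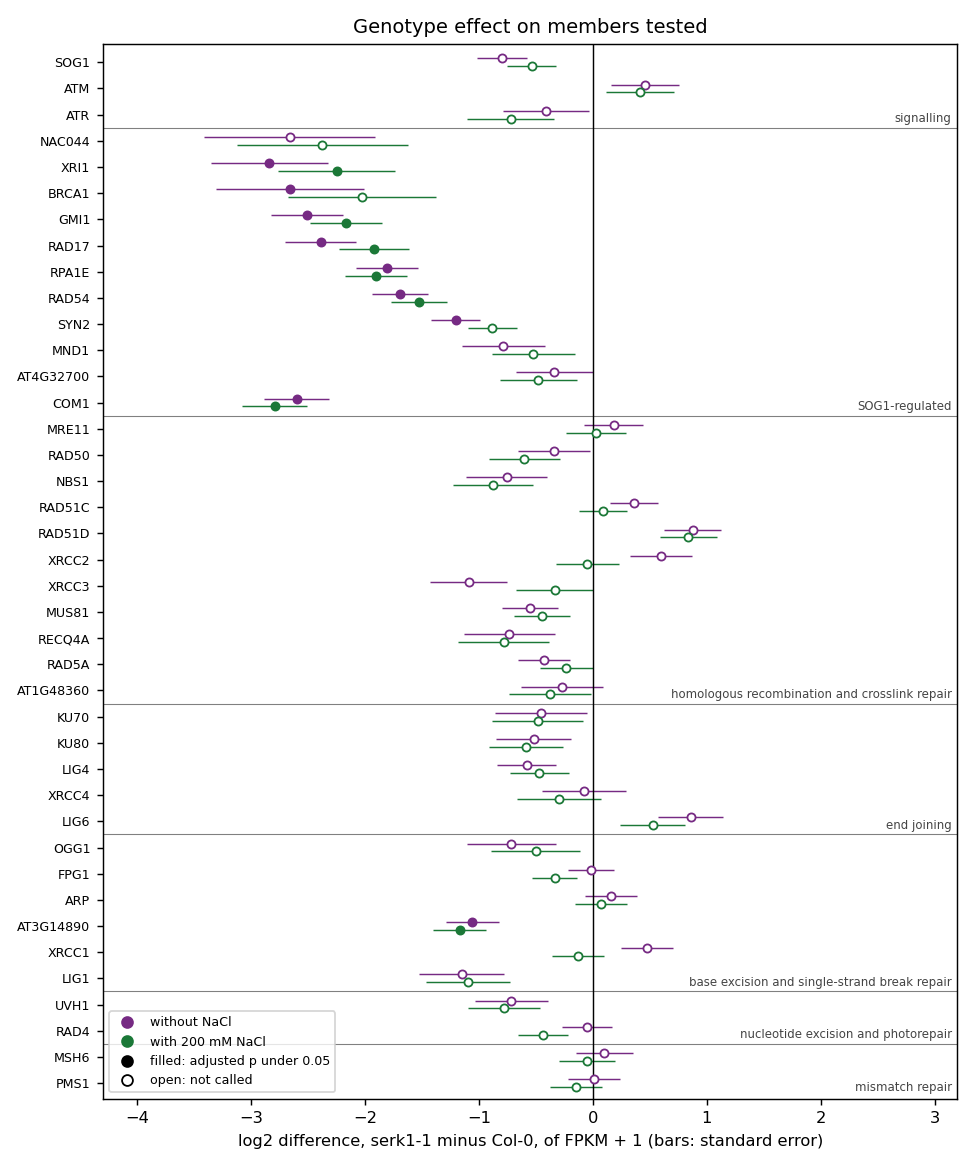
Log2 difference, serk1-1 minus Col-0, of FPKM + 1 for members tested, without NaCl and with 200 mM NaCl, grouped by role. Bars are standard errors and filled points are called. The filled points lie among the SOG1-regulated genes, from -2.84 to -1.20, and at AT3G14890.

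The SOG1-regulated list stood lower in serk1-1 than the other repair genes did. Its median log2 difference was -2.45 without NaCl and -1.97 with NaCl over the 12 genes tested, and -2.10 and -1.91 over all 14 genes without the filter on low values. The other repair genes had medians of -0.38 and -0.40 over the 28 tested, and -0.35 and -0.36 over all 30. The median over all genes tested was -0.14 without NaCl and -0.24 with NaCl, and median-of-ratios scaling moved these to -0.01 and 0.00. The SOG1-regulated median minus that of the other repair genes was -2.06 without NaCl and -1.57 with NaCl. Leaving out replicate 2 of salted Col-0 turned the second value into -0.94. With WEE1, LIG4, KU70 and KU80 moved into the SOG1-regulated list, the values were -1.53 without NaCl and -1.57 with NaCl. All 4 serk1-1 libraries lay below all 4 Col-0 libraries in 10 of the 14 SOG1-regulated genes and in 9 of the 30 other repair genes, among them NBS1, MUS81, KU80, LIG4, AT3G14890, LIG1, UVH1 and PHR1, against 20.4% of all genes tested. These are descriptions of lists that were chosen with earlier results of these data known, with no test of the difference between them.

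Within a library the order of the lists differed between genotypes. The median level of the SOG1-regulated genes on the log2(FPKM + 1) scale was 1.60 and 1.22 in salted serk1-1 and 1.83 and 1.10 in unsalted serk1-1. It was 3.66 and 3.89 in salted Col-0 and 3.90 and 3.93 in unsalted Col-0. The other repair genes had medians of 2.71 and 2.53 in salted serk1-1, 2.78 and 2.44 in unsalted serk1-1, 3.05 and 2.57 in salted Col-0, and 2.87 and 2.63 in unsalted Col-0. The SOG1-regulated genes were thus the weaker list in the 4 serk1-1 libraries and the stronger one in the 4 Col-0 libraries.

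**Figure D4:**
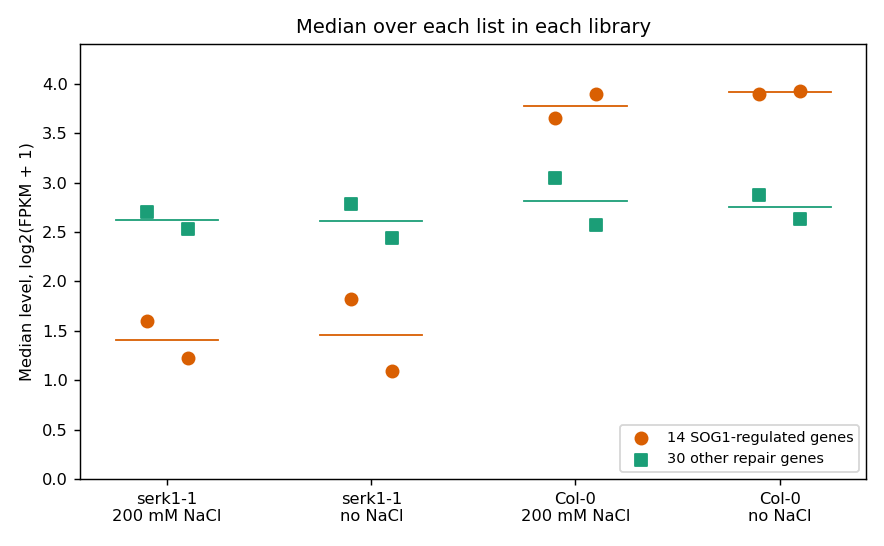
Median level of the 14 SOG1-regulated genes and of the 30 other repair genes in each library, on the log2(FPKM + 1) scale. Each point is a library and each line the mean of a group. The SOG1-regulated medians run from 1.10 to 1.83 in serk1-1 and from 3.66 to 3.93 in Col-0, and the other repair medians from 2.44 to 3.05.

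Among 8 further SOG1 targets outside these lists, SMR7, CYCB1;1, PARP1, PARP2 and TSO2 were called lower in serk1-1 in both media, with a median over the 8 genes of -2.69 without and -2.68 with NaCl. TSO2, a ribonucleotide reductase subunit, had 3.58 to 11.05 FPKM in serk1-1 and 289 to 469 FPKM in Col-0. Of 31 further repair genes, 22 were tested and 1 was called, FANCD2, a gene of crosslink repair, which fell in both media. Of 17 DNA replication genes 6 were tested and 0 were called, with 1 at an unadjusted p under 0.05 without and 2 with NaCl. All 6 had negative values in both media, with medians of -0.54 without and -0.48 with NaCl. The 17 genes summed to 8.69 to 14.01 FPKM in serk1-1 and to 16.85 to 31.77 FPKM in Col-0, and 8 stayed under 1 FPKM in every library. Of 8 mitosis genes 1 was tested, 0 were called and 7 stayed under 1 FPKM in every library.

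The salt effect asks whether 200 mM NaCl altered these genes in either genotype. In serk1-1, limma called 0 of the 48 genes and 0.00% of all genes tested, and 2 of the 48 had an unadjusted p under 0.05. In Col-0, it called 0 of the 48 and 0.0456% of all genes tested, and again 2 of the 48 had an unadjusted p under 0.05. RAD4 was the gene with such a p in both genotypes. It had 15.4 and 14.4 FPKM with NaCl and 10.4 and 8.42 FPKM without NaCl in serk1-1, against 23.4 and 17.9 FPKM with NaCl and 9.47 and 10.03 FPKM without NaCl in Col-0. In each genotype both salted libraries stood above both unsalted ones. The difference was 0.62 ± 0.22 in serk1-1 (adjusted p = 1.00) and 1.00 ± 0.22 in Col-0 (adjusted p = 0.161). The others were XRCC2, another mediator of strand exchange, at -0.74 ± 0.27 in serk1-1, and XRCC3 at -0.89 ± 0.34 in Col-0 (adjusted p = 1.00 and 0.385), named after their values were seen.

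Of the 14 SOG1-regulated genes, 0 had an unadjusted p under 0.05 for the salt effect in either genotype. In serk1-1 their log2 differences ran from -0.20 (NAC044) to 0.29 (SYN2), with a median of 0.03 over the 12 tested. In Col-0 they ran from -0.59 (BRCA1) to 0.25 (AT4G32700), with a median of -0.25. The other repair genes had medians of -0.08 in serk1-1 and -0.01 in Col-0, and all genes tested -0.06 and 0.05. SOG1 itself stood at 0.04 ± 0.22 in serk1-1 and -0.22 ± 0.22 in Col-0. In Col-0 the median of the SOG1-regulated genes minus that of the other repair genes was -0.24, and it became 0.34 or -0.63 when replicate 1 or 2 of the salted libraries was left out, and -0.48 or 0.23 when replicate 1 or 2 of the unsalted libraries was, so its sign rests on single libraries.

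Whether the salt effect differed between the genotypes was tested as the effect in serk1-1 minus that in Col-0, which was called for 0 of the 48 genes and for 0.00% of all genes tested, and 0 of the 48 had an unadjusted p under 0.05. For XRI1 it was 0.59 ± 0.73, for BRCA1 0.64 ± 0.92 and for SOG1 0.26 ± 0.31. These standard errors exceed the values. Other members had values larger than their standard errors, in both directions. Among them were XRCC3 (0.75 ± 0.48), XRCC2 (-0.65 ± 0.39), XRCC1 (-0.61 ± 0.32) and RAD17 (0.47 ± 0.44). With 2 libraries a group, none of these differences was detectable. The median of the SOG1-regulated genes minus that of the other repair genes was 0.40 in this comparison, and it became -0.19 or 0.92 when replicate 1 or 2 of salted Col-0 was left out, and 0.79 or 0.01 when replicate 1 or 2 of unsalted Col-0 was.

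**Figure D5:**
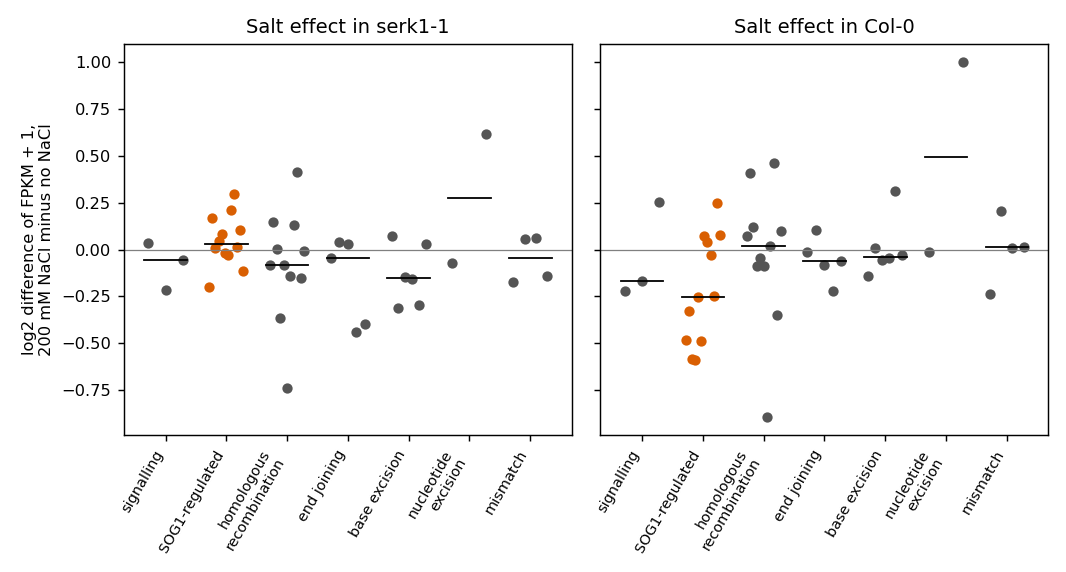
Log2 difference of FPKM + 1, 200 mM NaCl minus no NaCl, for each tested member by list in serk1-1 (left) and Col-0 (right). Points are genes, black lines are list medians and SOG1-regulated genes are in orange. The highest point in each panel is RAD4, at 0.62 in serk1-1 and 1.00 in Col-0.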

How the data were processed

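Total RNA of whole seeds was sequenced as paired ends on an Illumina HiSeq2500 after TruSeq RNA library preparation, per the labels' protocols. The authors deposited FPKM per gene for the 8 libraries in 1 table, made with Cufflinks 2.1.1 after FastQC 0.10.1 and TopHat2 on TAIR10, per the submitters' processing notes. The strand setting, like the annotation and the treatment of reads with several matches, was not given in the sources used here. Of the members, 13 overlap a gene on the other strand, and 1, RECQ4A, overlaps a gene on the same strand. If the reads carry no strand, those in a stretch shared with the other strand cannot be told apart. The length of the shared stretches is not given here. The overlapping genes differed in level. Those of KU70 and XRCC1 were listed at 0 in all libraries, and those of XRCC4 and UVH1 reached at most 0.05 and 0.33 FPKM. FPKM give no depth, so no counting error is stated. The labels call the replicates biological, and p-values rest on the spread between them.

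The 15336 genes that reached 1 FPKM in 2 or more libraries were fitted on log2(FPKM + 1) with limma 3.58.1 in R 4.3.3, as 4 group means in 1 fit with a mean-variance trend (4 residual and 3.48 prior degrees of freedom). The 5 comparisons were the genotype effect in each medium, the salt effect in each genotype and their difference. The fit was tested on simulated data. Values in every library are given for signalling and SOG1-regulated genes, for other genes called, and for the highest and lowest genotype difference without NaCl in each other repair list, and 3 members, though counted, are not reported here by name. The members and lists were chosen with earlier results of these data known. Promoters (250 bases before to 50 after the annotated gene start) were read from TAIR10.1, whose annotation held all 48 loci. The RefSeq symbols of COM1 and FPG1 are GR1 and MMH-1. Alternatives were other pseudocounts (0.1 and 0.5), filters, scalings, variance models and list borders, a fit of the compared groups alone, a replicate block, and leaving out 1 library at a time.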

Additional observations from a re-analysis of the deposited data

How the results depend on the processing

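Among the genes called, the direction of the genotype effect held under every alternative run, and the call was often lost, for example for XRI1 with NaCl (13 of 18 alternatives), AT3G14890 with NaCl (12 of 18) or without NaCl (9 of 18) and BRCA1 without NaCl (9 of 17). The number of members called without NaCl, 10, ranged from 0 to 10 with 1 library left out. With NaCl, 8 became 5 with no filter, 4 under median-of-ratios scaling and 0 with only the groups compared in the fit, and ranged from 0 to 6 with 1 library left out. With a replicate block the counts were 23 without and 19 with NaCl, or 53.5% and 44.2% of the members tested, against 40.1% and 38.3% of all genes tested. They held 10 SOG1-regulated genes in each medium, NAC044 among them, SOG1 itself, and 12 other repair genes without and 8 with NaCl. Of these, LIG1 and UVH1 were lower in both media, XRCC3 was lower without NaCl, RAD51D was higher in both media and LIG6 higher without NaCl. RAD4 was called as higher in salted Col-0 (1 member). The replicate differences correlated between groups at 0.40 to 0.72, but with 2 numbers a group and no label that ties a number to a shared batch the block was not taken as a pairing. The median of the SOG1-regulated genes minus that of the other repair genes, -2.06 without NaCl, was -2.46 with a pseudocount of 0.1, -1.75 with no filter, -2.45 with a mean of at least 5 FPKM, -1.53 with WEE1, LIG4, KU70 and KU80 moved into the list, and -2.15 to -1.61 with 1 library left out. With NaCl, -1.57 was -1.90 and -1.87 with pseudocounts of 0.1 and 0.5, and -2.01 to -0.94 with 1 library left out. The same median ranged from -0.63 to 0.34 for the salt effect in Col-0, from -0.06 to 0.24 for the salt effect in serk1-1 and from -0.19 to 0.92 for the serk1-1 minus Col-0 salt effect. The cause of these changes was not tested. Values under 1 FPKM have no known counting error.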
